A study of Chlamydomonas reinhardtii with 9 samples.

Results

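Messenger RNA levels of 7 loci listed as genes of cytosolic ribosomal proteins were followed in Chlamydomonas reinhardtii, a unicellular green alga. They come from a list of 10 locus numbers whose rule uses no measured value, though earlier results of these data were known when it was drawn up. The other 3 listed loci, Cre12.g528750 (RPL12), Cre10.g432800 (RPSA) and Cre11.g480150 (RPS14), did not match an identifier in the count tables and were not analysed here. The tables hold 17737 identifiers, of which 14778 had enough counts to be tested, all 7 loci among them. Neither the count tables nor the RefSeq gene table used here pairs locus numbers with protein names. The names below are therefore those of the list, and no table could check them.

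All cells were wild type, of strain CPCC11, and spent 2 h in artificial freshwater. The controls received no methylmercury (MeHg), and the treated cultures received 0.05 nM or 0.5 nM of this organic, thiol-binding form of mercury. There were 3 biological replicates per group and 9 libraries in all. The labels of the 0.05 nM cultures word their source differently from those of the other groups, so anything else that set these cultures apart cannot be told apart from the dose.

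Cytosolic ribosomes translate the messages of the nuclear genome. A large subunit joins amino acids and a small subunit reads the messenger RNA, and each is built of ribosomal RNA and many proteins that are needed in matching amounts. Genes of these proteins are among the most heavily transcribed in growing cells, and in eukaryotes they are commonly regulated as a group with the supply of nutrients and the rate of growth. In algae and plants the chloroplast keeps ribosomes of its own, with a different set of proteins.

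As a check on the list, the loci were ranked by reads. Averaged over the 9 libraries, the 7 loci ranked between 30 and 113 of the 17737 identifiers by reads assigned, without correction for gene length. The locus listed as RPL3 ranked 30 and that listed as RPP0 ranked 113. Each library gave between 26134 and 73689 counts for each locus, out of 15138888 to 20433375 assigned counts per library. High read numbers are a known property of ribosomal protein genes, but they do not show which protein a locus encodes. Levels are not compared between loci, because no transcript lengths were used here. Of the 7 loci, 6 matched a locus tag in RefSeq's gene table of assembly version 5.5, and 0 of these overlapped another gene in it.

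None of the 7 loci passed the test against control at either dose. CPM below are counts scaled to library size, with library composition corrected by the TMM method of edgeR. Differences are on the log2 scale, as fitted by edgeR, and were tested by its quasi-likelihood F test, two-sided. Their p-values were adjusted over all 14778 genes by the Benjamini-Hochberg method, and a locus passed under 0.05. At 0.05 nM against control, 0 of 7 loci passed, where 52.2% of all genes tested did. At 0.5 nM against control, 0 of 7 passed, where 60.3% of all genes did. Between the doses 0 of 7 passed, where 0.832% of all genes did, or 123 genes. With the replicate number as a block 0 of 7 passed in each comparison, while the genes called went from 7714 to 9400 at 0.05 nM, from 8905 to 10280 at 0.5 nM and from 123 to 1328 between the doses. At an unadjusted p under 0.05 the count was also 0 of 7 in all 3 comparisons by edgeR without the block. Of all 14778 genes, 8586 had such a p at 0.05 nM, 9501 at 0.5 nM and 2002 between the doses. With the block the count was 1 of 7 at 0.05 nM, the locus listed as RPL3, where 9880 of all 14778 genes had such a p. It was 0 of 7 with the block at 0.5 nM and between the doses, where 10646 and 3316 genes had such a p. DESeq2 called 1 locus lower at each dose, the locus listed as RPL3, and 0 between the doses. Of all 14778 genes DESeq2 called 7446 at 0.05 nM, 8633 at 0.5 nM and 646 between the doses. Of these, 4026, 4510 and 600 were lower.

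By TMM-scaled CPM, in no comparison did the 3 libraries of a group lie all above or all below the 3 of the other for any of the 7 loci. Among all genes tested such a separation was seen for 60.1% at 0.05 nM against control, for 63.2% at 0.5 nM against control and for 20.7% between the doses. By library totals alone, RPL10 lay all above the controls at 0.05 nM and RPL7A at both doses. RPL7A then stood at 1922 to 2171 CPM in the controls, 2416 to 2433 CPM at 0.05 nM and 2324 to 3118 CPM at 0.5 nM. RPL10 then stood at 2694 to 3319 CPM in the controls and 3503 to 3662 CPM at 0.05 nM. The share of all genes so separated by library totals is not given here. The median log2 difference of all genes was then 0.30 at 0.05 nM and 0.36 at 0.5 nM. In bulk RNA, fewer cells with a transcript and less transcript per cell cannot be told apart.

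**Figure D1:**
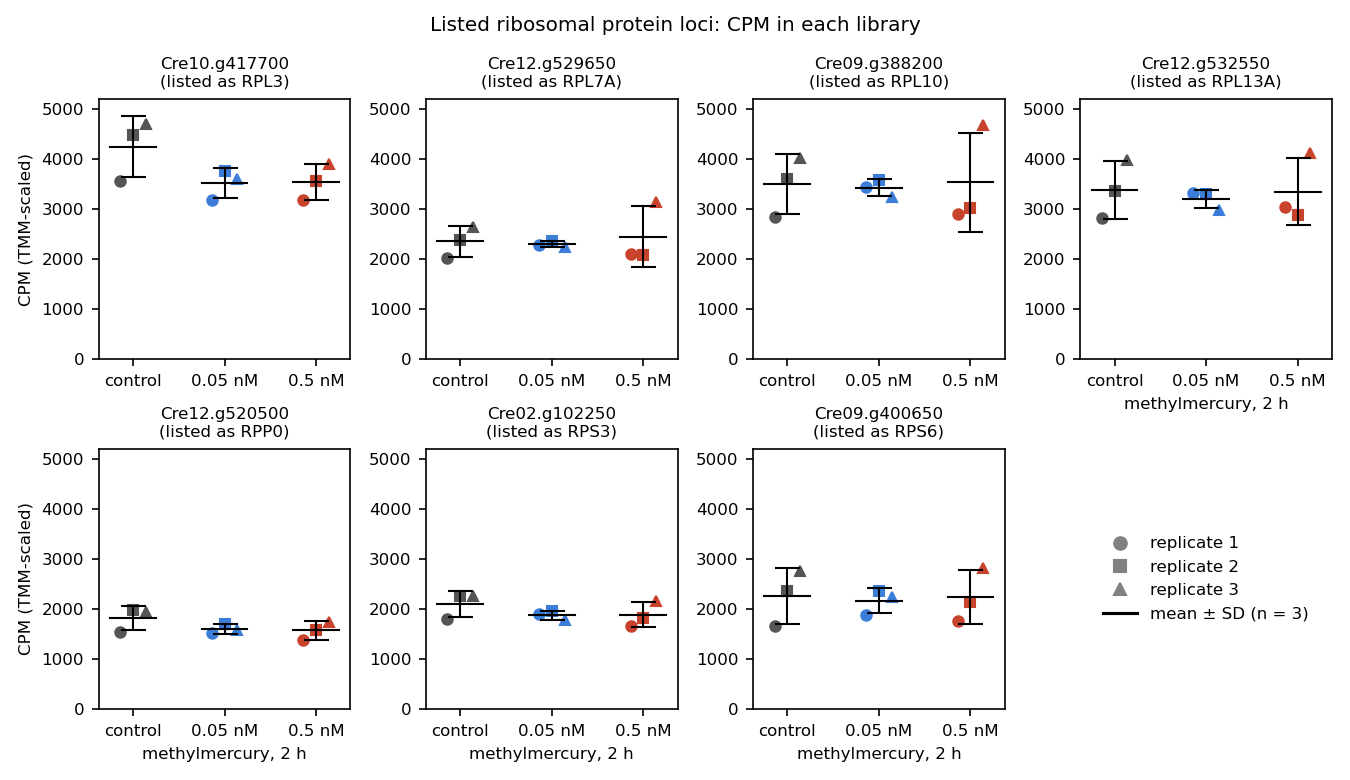
CPM (TMM-scaled, vertical axis from 0) of the 7 loci in each of the 9 libraries, by methylmercury group. Symbols mark the replicate number, and bars give the mean ± SD (n = 3). The groups overlap in every panel, and the locus listed as RPL10 runs from 2848 in control replicate 1 to 4680.0 in replicate 3 at 0.5 nM.

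Of the large subunit loci, Cre10.g417700, listed as RPL3, had the largest difference from control. RPL3 is a core protein of the large subunit near the site of peptide bond formation. Its locus stood at 3569, 4470.1 and 4706 CPM in control replicates 1 to 3. At 0.05 nM it stood at 3179.7, 3767 and 3594 CPM, and at 0.5 nM at 3180.1, 3555 and 3906 CPM. Only control replicate 1 lay within the treated range, and the other 2 controls lay above all 6 treated libraries. The group means were 4248 ± 600.3, 3514 ± 302 and 3547 ± 363 CPM (SD, n = 3 each).

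The log2 difference of the RPL3 locus from control was -0.27 ± 0.154 (SE) at 0.05 nM, with a 95% interval of -0.61 to 0.06 (edgeR adjusted p = 0.156). At 0.5 nM it was -0.26 ± 0.154, with an interval of -0.60 to 0.08 (edgeR adjusted p = 0.164). This locus passed in DESeq2 at both doses (adjusted p = 0.0442 and 0.0446). It also passed in edgeR without control replicate 1 (adjusted p = 0.0452 and 0.0465). With the replicate block it did not pass (edgeR adjusted p = 0.0665 and 0.0727). Over all alternatives the adjusted p ran from 0.0442 to 0.961 at 0.05 nM and from 0.0446 to 0.796 at 0.5 nM, the highest with library totals alone. Between the doses the difference was 0.01 ± 0.154, with an interval of -0.32 to 0.35 (edgeR adjusted p = 0.988).

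Cre12.g520500 is listed as RPP0, the protein at the base of the ribosomal stalk, which recruits translation factors to the large subunit. It stood at 1544, 1969 and 1945 CPM in the controls, at 1515, 1695.5 and 1587 CPM at 0.05 nM and at 1381, 1589 and 1743 CPM at 0.5 nM. As for the RPL3 locus, control replicate 1 lay within the treated range and the other 2 controls above it. Its log2 difference from control was -0.19 ± 0.141 (SE) at 0.05 nM, with a 95% interval of -0.50 to 0.12 (edgeR adjusted p = 0.291). At 0.5 nM it was -0.21 ± 0.141, with an interval of -0.52 to 0.10 (edgeR adjusted p = 0.215).

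Cre09.g388200 is listed as RPL10, a protein added late in the assembly of the large subunit, in the cytoplasm, and needed for the subunits to join. It stood at 2848, 3607 and 4029 CPM in the controls and at 3444, 3581 and 3246 CPM at 0.05 nM. At 0.5 nM replicates 1 and 2 stood at 2909.7 and 3021 CPM and replicate 3 at 4680.0 CPM. The control libraries spanned all 3 libraries of the lower dose, and a single library of the higher dose exceeded all controls. The log2 difference from control was -0.03 ± 0.198 (SE) at 0.05 nM, with a 95% interval of -0.46 to 0.40 (edgeR adjusted p = 0.913). At 0.5 nM it was 0.02 ± 0.198, with an interval of -0.42 to 0.45 (edgeR adjusted p = 0.948), and without 0.5 nM replicate 3 it was -0.24.

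Cre12.g529650, listed as RPL7A, a large subunit protein, was also highest in 0.5 nM replicate 3 and lowest in control replicate 1. It stood at 2032, 2389 and 2636 CPM in the controls, at 2288, 2367 and 2250.1 CPM at 0.05 nM and at 2101, 2087 and 3148 CPM at 0.5 nM. The 0.05 nM libraries lay close together, with a coefficient of variation of 2.59%, against 12.9% in the controls and 24.9% at 0.5 nM. The log2 differences from control were -0.03 ± 0.175 and 0.06 ± 0.175 (SE; edgeR adjusted p = 0.897 and 0.799). With library totals alone in place of TMM, this locus was higher by 0.34 at 0.5 nM and passed (edgeR adjusted p = 0.0281). The alternatives gave this locus adjusted p-values between 0.0281 and 0.98 at that dose, by edgeR or DESeq2.

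Cre12.g532550, listed as RPL13A, also a large subunit protein, stood at 2827, 3354 and 3972 CPM in the controls. At 0.05 nM it stood at 3315, 3296 and 2987 CPM, and at 0.5 nM at 3035, 2887 and 4126 CPM. Replicate 3 at 0.5 nM was again the highest library and control replicate 1 the lowest. The log2 differences from control were -0.08 ± 0.175 and -0.02 ± 0.175 (SE; edgeR adjusted p = 0.723 and 0.949).

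Of the small subunit loci, Cre02.g102250 is listed as RPS3, a protein at the channel through which messenger RNA enters the ribosome. It stood at 1799, 2253 and 2255 CPM in the controls, at 1891, 1956 and 1777 CPM at 0.05 nM and at 1667, 1827 and 2161 CPM at 0.5 nM. As for the RPL3 and RPP0 loci, control replicates 2 and 3 lay above all treated libraries and replicate 1 within their range. The RPS3 locus varied least of the 7 over all libraries, with its highest value 1.35 times its lowest. The log2 differences from control were -0.17 ± 0.144 and -0.16 ± 0.144 (SE; edgeR adjusted p = 0.36 and 0.366).

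Cre09.g400650 is listed as RPS6, a small subunit protein that is phosphorylated downstream of the TOR growth pathway in plants and animals. It stood at 1666, 2361 and 2766 CPM in the controls, at 1887, 2368 and 2237 CPM at 0.05 nM and at 1767, 2135 and 2822 CPM at 0.5 nM. It varied most of the 7, with its highest value 1.69 times its lowest, and in each group replicate 1 was the lowest library. The log2 differences from control were -0.07 ± 0.211 and -0.01 ± 0.211 (SE; edgeR adjusted p = 0.818 and 0.959). Its intervals were the widest of the 7, at -0.53 to 0.40 and -0.48 to 0.45.

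As fitted, all 7 differences were negative at 0.05 nM, from -0.27 to -0.03 with a median of -0.08. At 0.5 nM 5 were negative and 2 positive, from -0.26 to 0.06 with a median of -0.02. Between the doses 6 were positive and 1 negative, from -0.03 to 0.09 with a median of 0.05. The medians over all genes tested were 0.05, 0.07 and 0.01 in the same order. The median size of the difference without its sign was 0.08, 0.06 and 0.05 for the 7 loci and 0.45, 0.54 and 0.14 for all genes. Both doses were compared with the same 3 controls, so the signs at the doses are not independent.

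These signs depend on the scaling. With library totals alone, the median of all genes shifted by 0.26 at 0.05 nM and by 0.29 at 0.5 nM. The median of the 7 loci shifted by 0.27 and 0.29, to 0.19 and 0.28, leaving 1 and 0 negative values. In the authors' deposited table, signed fold changes of the 7 loci ran from -1.21 to -1.02 at 0.05 nM and from -1.20 to 1.04 at 0.5 nM. The same table gave them FDR-corrected p-values of 0.148 to 1 and of 0.157 to 1, so 0 of 7 were under 0.05 there.

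**Figure D2:**
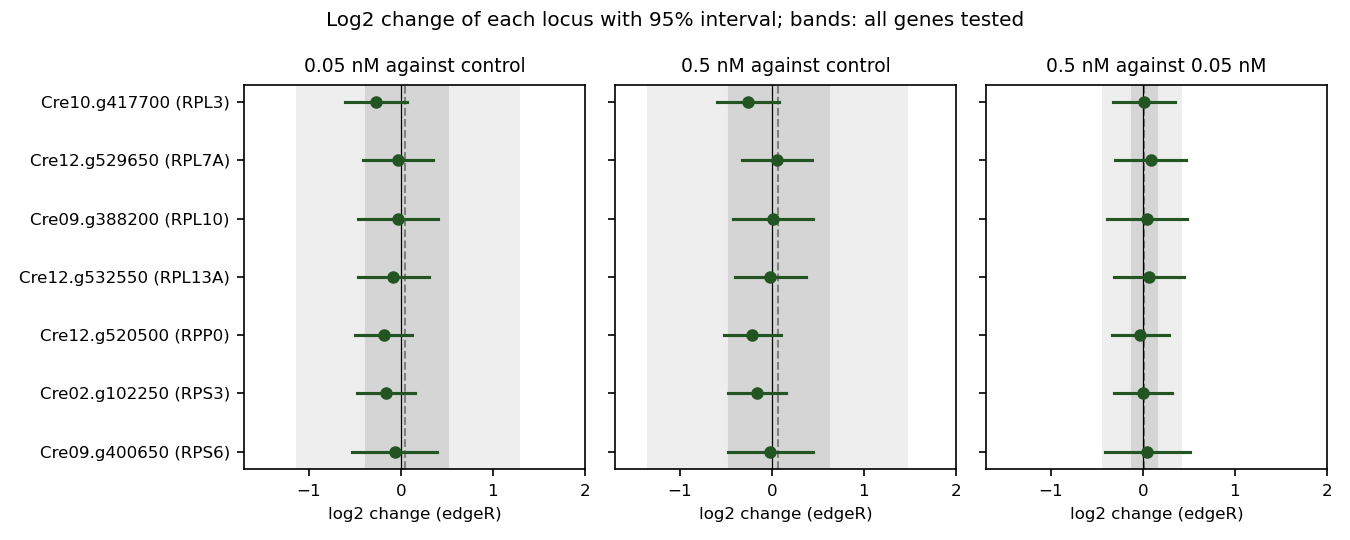
Fitted log2 change (points) with 95% interval (lines) of the 7 loci in the 3 comparisons, from edgeR. The darker band holds the middle 50% and the lighter band the middle 90% of all 14778 genes tested, and the dashed line their median. Every interval includes 0, and none reaches beyond -0.61 or 0.51.

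Single libraries lay further apart for these loci than the group means did. Averaged over the 7 loci, log2 CPM in the controls was 11.38 ± 0.23 (SD, n = 3). In the treated groups it was 11.27 ± 0.07 for 0.05 nM and 11.29 ± 0.25 for 0.5 nM. The largest difference between group means was 0.11, whereas the libraries spanned 0.45 within the controls, 0.13 at 0.05 nM and 0.48 at 0.5 nM. Means of 3 libraries vary less than single libraries, so this describes the spread and does not measure a group effect. Control replicate 1 was the lowest control for all 7 loci, and replicate 3 was the highest 0.5 nM library for all 7. Over the 9 libraries, 4 loci had their highest value in 0.5 nM replicate 3 and 4 had their lowest in control replicate 1. In replicate 1 at 0.5 nM 5 loci had their lowest value of that group, and in replicate 1 at 0.05 nM 3 did.

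Without 0.5 nM replicate 3 all 7 differences at 0.5 nM were negative, with a median of -0.24, and 0 passed. Without control replicate 1 the medians were -0.25 at 0.05 nM and -0.20 at 0.5 nM, and the RPL3 locus passed, as given above. Of all 14862 genes tested in that fit, 7701 passed at 0.05 nM and 8964 at 0.5 nM. Without control replicate 3 the medians of the 7 loci were 0.05 and 0.11. Control replicate 3, high for these loci, also had the most alignments at more than one place, 43.7% of its assigned count against 19.0% to 27.0% in the other 8 libraries. The part of such alignments in the levels was not tested.

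**Figure D3:**
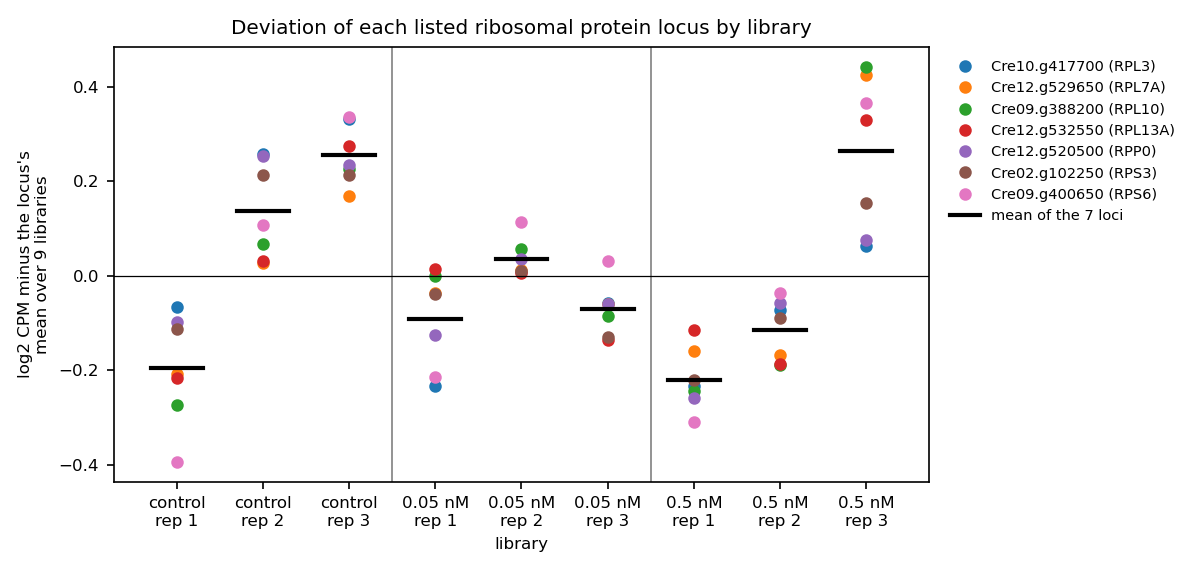
Deviation of the log2 CPM of each locus from its own mean over the 9 libraries (vertical axis), by library. Black bars are the mean of the 7 loci. Control replicate 1 lies low and 0.5 nM replicate 3 high, and the libraries within control and within 0.5 nM lie further apart than the group means.

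Reads of the 7 loci together made up 1.54%, 1.78% and 1.84% of assigned counts in the controls. They made up 1.86%, 1.94% and 1.91% at 0.05 nM and 1.82%, 1.90% and 2.24% at 0.5 nM. The group means were 1.72% ± 0.158, 1.90% ± 0.040 and 1.99% ± 0.221 (SD, n = 3 each). By library totals all 3 libraries at 0.05 nM thus lay above the controls, while those at 0.5 nM overlapped them. After TMM scaling the sum was 1.97% ± 0.308, 1.81% ± 0.0831 and 1.86% ± 0.351, and the order of the group means turned. The TMM factors behind this ran from 0.824 to 0.946 in the controls, from 1.02 to 1.08 at 0.05 nM and from 0.991 to 1.13 at 0.5 nM. The shares are a description, without a test.

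Spread between replicates was not unusually small for these loci beside all genes tested. The SD of log2 CPM within groups, pooled over the 3 groups, ran from 0.157 at the RPP0 locus to 0.308 at the RPS6 locus, against a median of 0.188 over all genes tested. These values lay between percentiles 37.3 and 81.2 of all genes. The SD over all 9 libraries, which also takes in differences between groups, ran from 0.159 to 0.267, against a median of 0.345 over all genes, at percentiles 11.3 to 34.5.

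The levels of the 7 loci varied together across libraries. Pearson's r of log2 CPM over the 9 libraries had a median of 0.809 over the 21 pairs of loci and ran from 0.536 to 0.985, with 0 negative values. All points share library and scaling, and with library totals alone r ran from 0.224 to 0.97 with a median of 0.796. The closest pair was RPL7A with RPL10 (r = 0.985), followed by RPL3 with RPP0 (r = 0.965). RPL13A followed RPL10 (r = 0.959) and RPL7A (r = 0.949), and RPS3 followed RPP0 (r = 0.946). The least alike were RPL3 and RPL7A (r = 0.536). These groupings were read from the values and were not tested, and r is not given for pairs of other genes.

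Differences among the loci within a library do not depend on the scaling. The log2 CPM of each locus minus the mean of the 7 in the same library was therefore compared as well. The RPL3 locus stood 0.66 ± 0.028 above that mean in the controls (SD, n = 3). With 0.05 nM it stood 0.50 ± 0.082 above it, and with 0.5 nM 0.49 ± 0.128. Its treated libraries, at 0.41 to 0.57 and 0.35 to 0.59, all lay below its controls, at 0.63 to 0.68. The RPL10 locus stood 0.38 ± 0.026 above the mean in the controls and 0.47 ± 0.054 at 0.05 nM, without overlap, and 0.46 ± 0.133 at 0.5 nM, with overlap.

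On this measure 2 of 7 loci did not overlap at 0.05 nM against control, where 51.7% of all genes tested did not. At 0.5 nM it was 1 of 7, against 47.6% of all genes, and between the doses 0 of 7, against 11.5%. The loci are part of the mean they are compared with, and each of these shares of loci is below that of all genes.

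Of loci outside the list, Cre10.g425900 (r = 0.982) and g10679 (r = 0.98) were most like the mean log2 CPM of the 7, over 9 libraries and among 8213 tested loci with a mean of at least 10 CPM. Cre10.g425900 stood at 717 ± 109 CPM in the controls, and with the low and the high dose at 647 ± 48.3 and 684 ± 138 CPM (SD over 3 libraries). The locus g10679 stood at 1652 ± 202 CPM in the controls, and with the low and the high dose at 1510.1 ± 47.8 and 1532 ± 273 CPM. In both, the group means differed by less than the SD of the controls. Both were chosen for their likeness to the mean of the 7, so a like pattern over the groups is not a separate result.

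Further loci of the translation machinery were taken from lists of recalled locus numbers, which no table used here could check either. Of 22 numbers for other cytosolic ribosomal proteins 10 were present, and 0 of these 10 passed in each of the 3 comparisons, where 52.2%, 60.3% and 0.832% of all genes did. Their median difference was -0.07 at 0.05 nM, -0.01 at 0.5 nM and 0.06 between the doses, and single values against control ran from -0.30 to 0.15. Without control replicate 1, 1 of the 10 passed as lower at each dose, where 3765 and 4260 of all 14862 genes tested did. With library totals alone 4 of the 10 passed as higher at 0.5 nM. With library totals alone 6707 of all 14778 genes tested passed as higher at that dose.

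Of 10 recalled loci for ribosomal proteins of the chloroplast, 0 passed at 0.05 nM, where 52.2% of all genes did, or 1 higher with the replicate block. At 0.5 nM, where 60.3% of all genes passed, 1 rose and 0 fell, or 2 and 1 with the block, with a median difference of 0.01. The locus that rose, Cre13.g581650, was named after its values were seen. It went from 137, 143 and 159 CPM in the controls to 183, 172 and 225 CPM at 0.5 nM, and all 3 treated libraries lay above the controls. It rose by 0.40 ± 0.115 (SE) on the log2 scale (edgeR adjusted p = 0.00966). With library totals alone 7 of the 10 passed as higher at 0.5 nM and 4 at 0.05 nM. Of all 14778 genes tested, 6707 and 5905 did so in the same order. With the replicate block 4900 of all genes passed as higher at 0.05 nM, and 5427 as higher and 4853 as lower at 0.5 nM.

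Of 4 recalled numbers for translation factors and the ribosome-bound protein RACK1, 3 were present. At 0.05 nM 0 of 3 passed, where 52.2% of all genes did, with a median difference of -0.28. The number lower at that dose was 3 with the replicate block, 3 in DESeq2, 2 with DESeq2's size factors in edgeR, and 1 without control replicate 1, without 0.5 nM replicate 3 or without replicate 1 of all groups. Of all 14778 genes, 4500 were lower at that dose with the block, 4026 in DESeq2 and 4045 with its size factors. Without control replicate 1, 3765 of 14862 genes were lower. At 0.5 nM 2 of 3 fell, with a median of -0.32, which is near the 60.3% of all genes that passed. The number lower at 0.5 nM was 3 with the block, in DESeq2 and with its size factors, and 0 with library totals alone. Of all 14778 genes, 4853 were lower with the block, 4510 in DESeq2, 4542 with its size factors and 2557 with library totals alone. Cre06.g263450, named after its values were seen, stood at 1122, 1659 and 1624 CPM in the controls and at 827, 1096 and 1025 CPM at 0.5 nM. All 3 treated libraries lay below the controls, and the log2 difference was -0.58 ± 0.18 (SE; edgeR adjusted p = 0.0151). Cre06.g298650, named likewise, stood at 1312, 1358 and 1290.2 CPM in the controls and at 1048.5, 1071 and 1047.9 CPM at 0.5 nM. Its log2 difference was -0.32 ± 0.104 (SE), with an edgeR adjusted p of 0.0186.

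Both calls among the translation factor loci were lost without control replicate 2 (adjusted p = 0.072 and 0.0694) and without 0.5 nM replicate 1 (adjusted p = 0.0641 and 0.0569). The call of Cre06.g263450 was also lost without control replicate 3 (adjusted p = 0.0527), and that of Cre06.g298650 with only the control and 0.5 nM libraries in the fit (adjusted p = 0.0635) and without replicate 1 of all groups (adjusted p = 0.0516). That these loci differ in response from the 7 ribosomal protein loci was not tested.

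**Figure D4:**
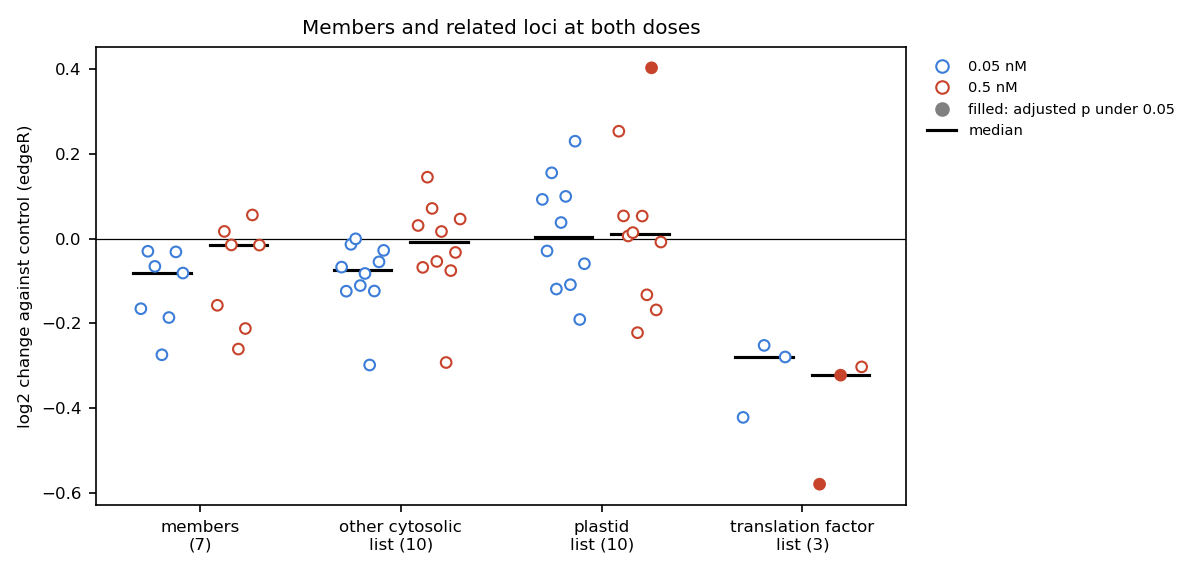
Fitted log2 change against control at 0.05 nM and 0.5 nM for the 7 loci (members), 10 other recalled cytosolic ribosomal protein loci, 10 recalled chloroplast ribosomal protein loci and 3 recalled translation factor loci. Filled points passed edgeR's test and black bars are medians. Filled points appear at 0.5 nM only, 1 in the chloroplast list and 2 in the translation factor list.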

How the data were processed

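RNA was measured in 9 libraries, 3 per group. Per the labels' protocols, the library kit was Illumina's stranded mRNA kit. Raw counts per gene were deposited. The submitters' processing notes name TopHat2 and HTSeq. Neither versions nor build, annotation and strand setting were given in the sources used here. Unassigned categories (reads outside genes, 1.04% to 1.26% of the assigned count, ambiguous reads, 0.267% to 0.336%, and alignments at more than one place) were kept out of library sizes. The authors' deposited table repeats the counts (9 of 9 columns equal). Per the file headers, its p-values, raw and FDR-corrected, come from an EDGE test with tagwise dispersions run by the authors. Per the file headers, its score is the fold change of that test, in which a fold below 1 is written as minus its inverse by the authors. Its rounded CPM were not used.

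In R 4.3.3, edgeR 4.0.16 was run on all 9 libraries (filterByExpr, TMM, robust quasi-likelihood fit, group as the only term), with SEs derived from the F statistic. The code was tested on simulated data. There, of log2 changes of 0.5 set at 0.5 nM against control, 17.5% passed. Of changes of 1 and of 2, 80.5% and 99% passed. Log2 CPM used a prior count of 2. Alternatives were DESeq2 1.42.0, its size factors in edgeR, library totals alone, no low-count filter, only the groups compared, a replicate block, and leaving out libraries. Deviations of same-numbered libraries were correlated over all genes, from the data only. For replicate 1 r was 0.570 to 0.63, for replicate 2 0.279 to 0.366 and for replicate 3 0.104 to 0.210. Libraries of different number were not compared, so pairing by number was not established. Blocked values are given beside the counts and calls they change. Replicate pairs differed by more than counting error (chi-square per degree of freedom 4.55 to 51.4). The loci and lists were chosen with earlier results of these data known. Named were all listed loci present and the 2 loci most like their mean. Counting precision is set by the depth given with the results. The design's levels per coding length and check by protein sequence were not run, since no protein lengths or sequences were used here.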

Additional observations from a re-analysis of the deposited data

How the results depend on the processing

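The 7 ribosomal protein loci gave 336 differences under the alternatives, of which 5 passed the test and 44 had another sign than in the fit reported. No locus passed between the doses in any alternative. Against control, 6389 to 9400 genes passed at 0.05 nM over the alternatives, and 8112 to 10280 at 0.5 nM. DESeq2 called 1 locus at each dose against control, where it called 7446 and 8633 genes, and 646 genes between the doses. Library totals alone called 1 locus at 0.5 nM, where 9264 of all 14778 genes tested passed. Between the doses they called 0 genes, where 1530 genes had an unadjusted p under 0.05. Leaving out single libraries gave 0 to 1 called loci at each dose, and 0 to 383 genes between the doses. That last count was 123 as fitted, 55 with only the groups compared, 1 without replicate 1 of all groups and 1328 with the replicate block. Elsewhere the block changed no call of the 7 loci. The cause of these changes was not tested.

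With library totals alone, log2 differences at 0.05 nM turned to 0.24 for RPL7A, 0.24 for RPL10, 0.19 for RPL13A, 0.079 for RPP0, 0.10 for RPS3 and 0.21 for RPS6, and to 0.0065 for Cre06.g298650. At 0.5 nM they turned to 0.035 for RPL3, 0.28 for RPL13A, 0.081 for RPP0, 0.13 for RPS3 and 0.28 for RPS6, and between the doses to 0.0021 for RPP0. RPL10 at 0.5 nM turned to -0.033 in DESeq2 and with its size factors in edgeR. Between the doses RPS3 turned to -0.0014 with the block and RPP0 to 0.021 without replicate 1 of all groups.

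Leaving out single libraries, differences at 0.05 nM ran from -0.39 to -0.19 for RPL3, -0.30 to -0.13 for RPP0, -0.27 to -0.11 for RPS3, -0.13 to 0.058 for RPL7A, -0.17 to 0.085 for RPL10, -0.20 to 0.0496 for RPL13A and -0.25 to 0.10 for RPS6. At 0.5 nM they ran from -0.38 to -0.18 for RPL3, -0.32 to -0.13 for RPP0, -0.27 to -0.076 for RPS3, -0.17 to 0.16 for RPL7A, -0.24 to 0.14 for RPL10, -0.20 to 0.11 for RPL13A and -0.22 to 0.15 for RPS6. Between the doses they ran from -0.066 to 0.085 for RPL3, -0.14 to 0.19 for RPL7A, -0.21 to 0.17 for RPL10, -0.12 to 0.16 for RPL13A, -0.11 to 0.058 for RPP0, -0.11 to 0.088 for RPS3 and -0.15 to 0.20 for RPS6.

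With the 10 genes with the most reads left out of the total, the share of reads in the 7 loci was 1.85% in the controls, 2.02% with 0.05 nM and 2.12% with 0.5 nM, the same order of means as with all reads. With 3 libraries a group and within-group SDs of up to 0.308 on the log2 scale, the 95% intervals leave room for differences of up to 0.61, and counting error is small beside this. The order of levels with and without division by length was not run, because no lengths were used here.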
